A study of Homo sapiens with 12 samples.

Results

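HLE cells, an established human hepatocellular carcinoma line, were transfected with siRNAs that lower the transcripts of YAP and TAZ together (siY/T), and their RNA was set against that of HLE cells given a control siRNA (siCtrl). Both groups were cultured with DMSO, the vehicle of the kinase inhibitor Sorafenib. The comparison rests on 2 siY/T and 2 siCtrl samples, 4 of the 12 samples of the series, which the sample labels name directly, and it asks which transcripts depend on YAP and TAZ when no drug is present. It was read across the 13515 genes, of 26258 identifiers in the table, with at least 1 CPM (reads scaled to 1000000 reads on genes) in at least 2 of the 12 samples. Beside it, 3 other groups of 2 samples were read, siCtrl and siY/T cells cultured with 5 µM Sorafenib, and cells given siRNA against ATF4 (siATF4) in DMSO. Every group was transfected, so no untransfected cells were compared, and the culture is 1 cell line in which the siRNAs lower transcripts without removing the genes. Nothing in the labels says that the 2 samples of a group came from separate cultures, whereas the study's methods speak of biological triplicates, and 2 samples a group were analysed here. The p-values therefore measure the spread between samples that may be technical.

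YAP (gene *YAP1*) and TAZ (gene *WWTR1*) are transcriptional co-activators that do not bind DNA themselves but act with the TEAD transcription factors. The Hippo kinases LATS1 and LATS2 phosphorylate both and keep them in the cytoplasm, and several genes that restrain the pathway, *LATS2* and *AMOTL2* among them, are themselves YAP/TAZ targets. In liver, YAP and TAZ are known for controlling organ size, the choice between hepatocyte and biliary fate and tumour growth.

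The samples held between 41408348 and 53619732 reads on genes, so 1 read stood for 0.0186 to 0.0241 CPM. Counting error, which says nothing of the spread between cultures, is small at most of the levels named here. Markers were used to check the cell type. *ALB*, *APOA1*, *APOB*, *TTR*, *TF*, *HNF4A*, *CYP3A4*, *AFP* and *SERPINA1* were among the hepatocyte markers that stayed under 1 CPM in both siCtrl samples, and *FGB*, a fibrinogen chain, was the only 1 of the 11 hepatocyte markers above it (368 and 431 CPM). In siY/T cells *FGB* was at 225 and 254 CPM, and *SERPINA1* at 2.32 and 1.64 CPM against 0.112 and 0.266 CPM in siCtrl cells. HLE cells thus lacked most defining hepatocyte transcripts, while *KRT8* and *KRT18* and the mesenchymal *VIM* were abundant. The 3 endothelial markers summed to 0.0241 to 0.0780 CPM over the 4 samples. RNA of a whole culture cannot tell fewer cells of a kind from less RNA per cell. The 2 siY/T DMSO samples differed more from each other than the samples of any other group did, with an SD of 0.190 over genes for their log2 difference, against 0.110 to 0.132 elsewhere. Counts of called list members were therefore also taken without either of them, and are given below for the lists that open a paragraph and wherever a count moved by over 1.5 times.

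*YAP1* stood at 277 and 279.9 CPM in the siCtrl and 46.6 and 57.7 CPM in the siY/T samples, and *WWTR1* at 169.8 and 173 and 53.3 and 68.6 CPM. Both siRNA targets were lower in each siY/T than in each siCtrl sample, with log2 differences of -2.41 ± 0.076 (SE) and -1.50 ± 0.089, and part of both transcripts remained. Of the TEAD factors, *TEAD1* fell from 302 and 314 to 177 and 236 CPM (-0.59 ± 0.10, limma P adj = 2.3e-04), a call that was lost without siY/T replicate 1, where the difference was -0.39. *TEAD2* (0.42), *TEAD3* (0.042) and *TEAD4* (-0.33) stayed inside the threshold. Here and below, differences are log2(CPM + 0.5) in siY/T minus siCtrl cells and ± is the SE from limma. P adj is limma's Benjamini-Hochberg adjusted p over all genes tested. A gene is called lowered or raised at an unadjusted P under 0.05 with a difference of at least 0.58 in size. The 6 groups share 1 estimate of the spread for each gene. Since the 2 siY/T DMSO samples differed most, the SE and P can be too small for this comparison.

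siY/T lowered 488 genes, 3.61% of those tested, and raised 1485, 11.0%. All of them also had P adj under 0.05. In none did the 2 siY/T samples overlap the 2 siCtrl samples. These genes were chosen for their difference, so the lack of overlap adds no support to the calls. The balance of rises and falls differed with the level of expression. The genes were split by mean CPM into 5 classes of 2703. In the lowest class 535 were raised and 163 lowered, and in the highest, from 89.7 CPM upwards, 132 were raised and 116 lowered. The median difference fell from 0.18 in the lowest to -0.017 in the highest class. With TMM scaling 633 genes were lowered and 1251 raised, and with quantile normalization 789 and 1044, so the lowered share of all calls was 24.7%, 33.6% and 43.04%. The median over all genes was 0.069 as deposited, 0.011 with TMM and -0.021 with quantile normalization. Without either siY/T sample in turn, 357 of the lowered and 1236 of the raised genes kept their call both times.

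**Figure D1:**
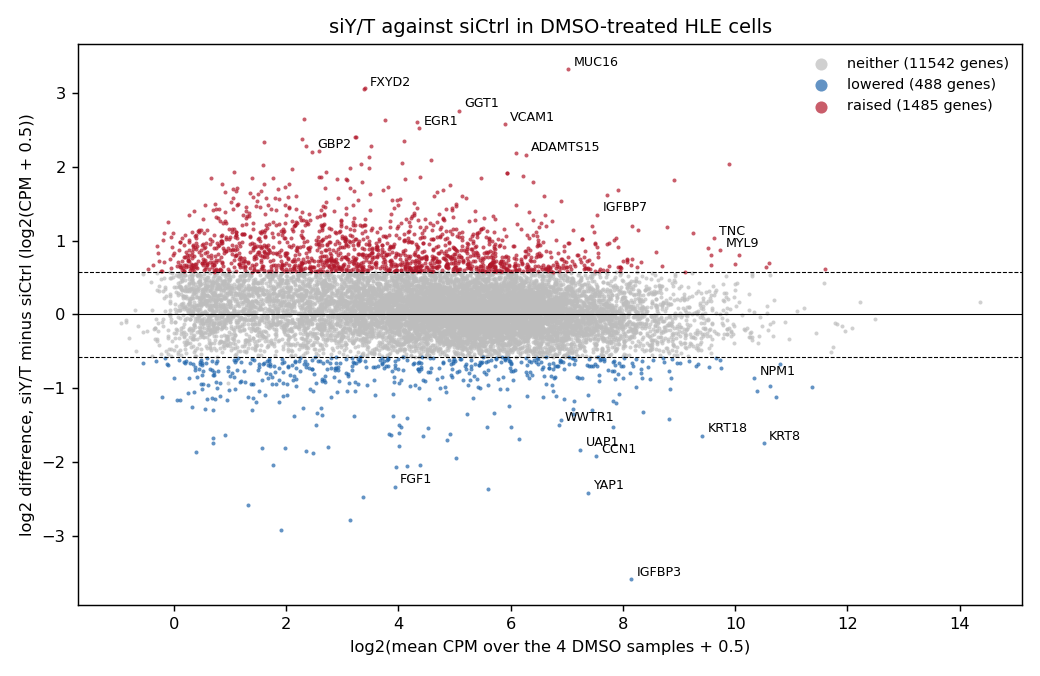
The log2 difference between siY/T and siCtrl cells in DMSO (vertical) is plotted against log2 of the mean CPM over the 4 samples plus 0.5 (horizontal) for the 13515 genes tested, with called genes in blue (488 lowered) and red (1485 raised) and dashed lines at differences of 0.58 either way. Rises crowd the low end of the level axis, and *KRT8* and *KRT18* are falls among abundant transcripts.

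The 15 largest falls, taken among called genes that averaged 5 CPM or more over the 4 samples and kept their call without either siY/T sample, held *YAP1* itself and several secreted signals. *IGFBP3*, which binds insulin-like growth factors, led them at -3.59 ± 0.072, followed by the neutrophil chemokine *CXCL5* (-2.78) and *TMEM40* (-2.48). *FGF1*, a fibroblast growth factor, went from 24.9 and 25.0 to 5.11 and 4.06 CPM (-2.33 ± 0.15), *CCN2* from 33.7 and 32.5 to 7.47 and 7.85 CPM (-2.04) and *CCN1* from 285 and 292 to 77.5 and 74.0 CPM (-1.92). *HBEGF*, a ligand of the EGF receptor, fell from 9.66 and 10.03 to 3.04 and 2.004 CPM (-1.80 ± 0.15). The rest were of mixed kinds. *UAP1*, the enzyme that makes UDP-N-acetylglucosamine for glycosylation, fell from 233 and 239 to 66.4 and 65.1 CPM (-1.84 ± 0.06, P adj = 3.5e-10), the most abundant of the 15 after *IGFBP3*, *YAP1* and *CCN1* by CPM, a scale that does not correct for transcript length. *ATP7B*, the copper transporter of Wilson disease, fell from 23.5 and 25.3 to 7.43 and 6.13 CPM (-1.78). The ubiquitin ligase *MARCHF4* (-2.36), the calsyntenin *CLSTN2* (-2.05), the serpin *SERPINB7* (-1.94), *LY6K* (-1.87) and the non-coding *SFTA1P* (-2.06) completed the group. The rule also asked for no overlap between the 2 siY/T and the 2 siCtrl values. That the siY/T values lay below both siCtrl values in each of these genes was thus fixed by the choice.

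The 15 largest rises by the same rule included a mucin, ion channels, transporters and enzymes. *MUC16*, the mucin measured as CA125, rose from 17.1 and 29.5 to 179 and 291 CPM (3.32 ± 0.25). In siCtrl as well as siY/T cells its 2 values differed by more than those of most genes. Both siY/T values nevertheless lay far above siCtrl. *FXYD2*, the gamma subunit of the Na,K-ATPase, went from 1.53 and 2.02 to 18.6 and 17.7 CPM (3.05). The read-through gene *FXYD6-FXYD2* gave nearly the same values (3.06), since the 2 genes share exons on chromosome 11, and they count as 1 observation. *GGT1*, gamma-glutamyltransferase, which breaks down extracellular glutathione, rose from 8.34 and 8.06 to 59.1 and 57.5 CPM (2.76 ± 0.096, P adj = 5.8e-10). The GGT family has near-identical copies on chromosome 22, so reads kept only at unique positions may under-count it. The adhesion receptor *VCAM1* rose from 14.9 and 18.4 to 95.9 and 107 CPM (2.57 ± 0.11), and *ADAMTS15*, a matrix protease, from 27.1 and 28.1 to 129 and 122 CPM (2.16). *MAP2*, a neuronal microtubule protein (2.64), *CYS1*, a ciliary protein (2.60), *GAL3ST1*, which sulfates galactosylceramide (2.40), *AKR1C3*, a steroid reductase (2.40), the potassium channel *KCNJ16* (2.35), the methyltransferase *TMT1A* (2.28), the glucose transporter *SLC2A2* (2.21), the BH3-only protein *BMF* (2.19) and the immediate early factor *EGR1* (2.52) were the others. As the rule required, no siY/T value in the group overlapped a siCtrl value.

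**Figure D2:**
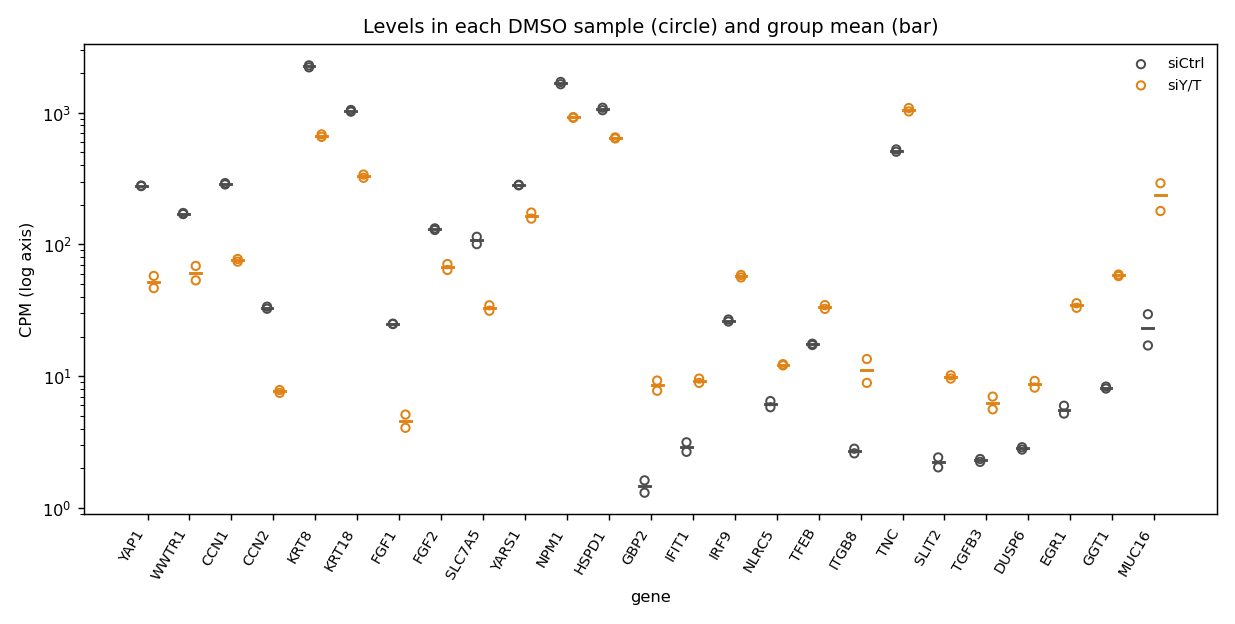
CPM on a log axis in each of the 4 DMSO samples (circles, siCtrl grey, siY/T orange; bars are group means of 2) for 25 genes described in the text. The pairs of circles lie close together beside the distance between the groups, with 2 exceptions. The samples lie further apart for *MUC16* in both groups and for *ITGB8* in siY/T cells.

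The genes were then read by 43 lists of pathways and cell functions. The lists hold 1424 genes, 45 of them in more than 1 list, and each list's counts are set beside the 3.61% lowered and 11.0% raised among all genes. Of the lists with at least 4 calls, those with falls and no rise were heat shock chaperones, aminoacyl-tRNA synthetases and ribosome biogenesis. Those with rises and no fall were interferon-stimulated genes, MHC class I presentation, integrins and laminins, the lysosome and ion transport.

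**Figure D3:**
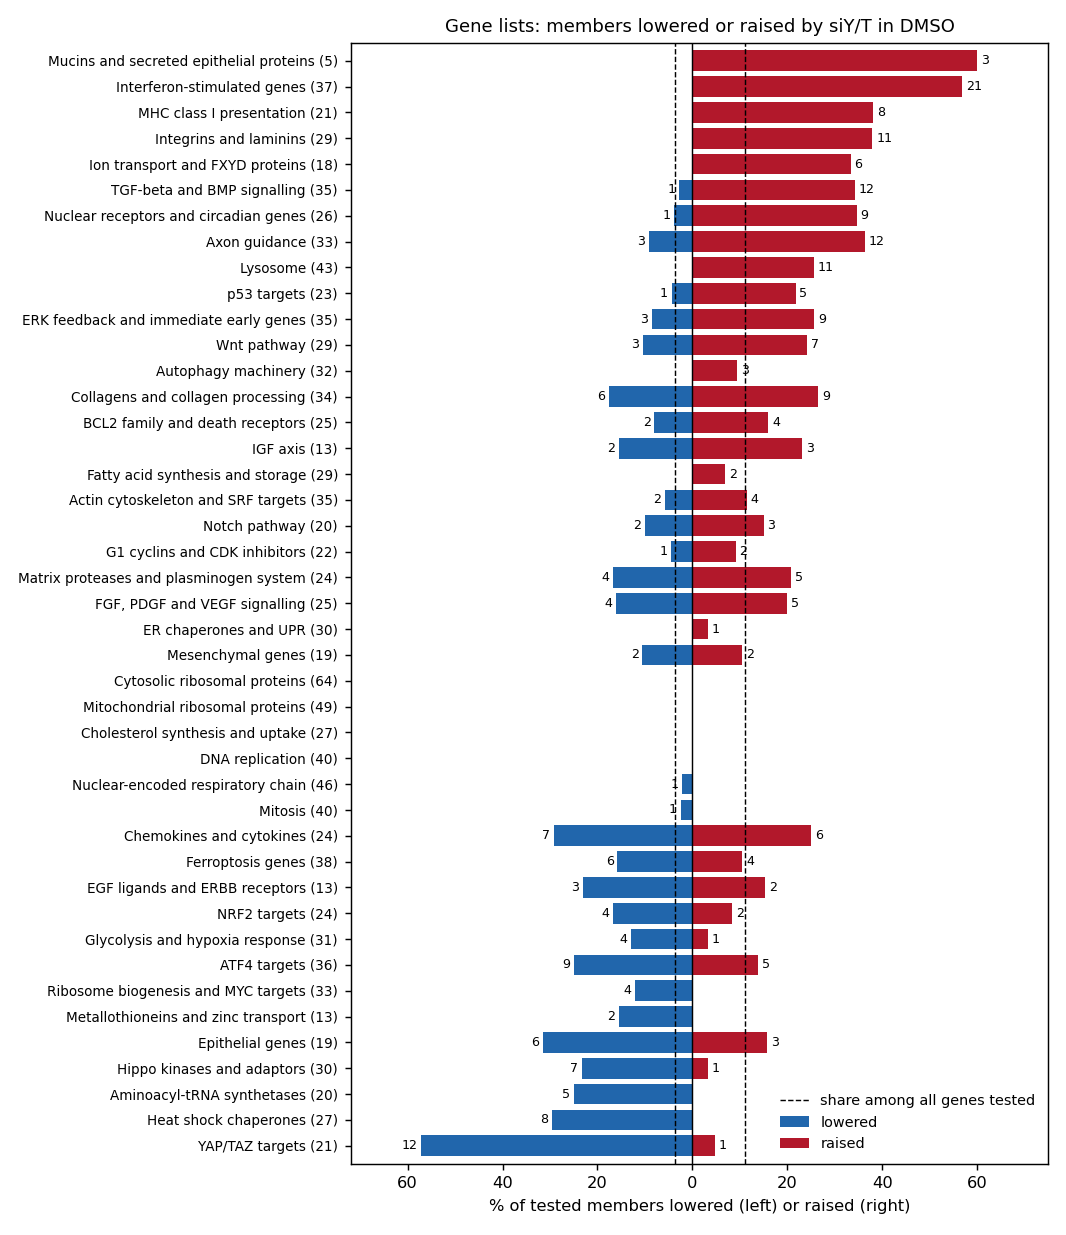
Share of the tested members of each list that siY/T lowered (blue, left) or raised (red, right) in DMSO, with the number of called members beside each bar, the number tested in brackets and dashed lines at the shares among all genes, 3.61% and 11.0%. YAP/TAZ targets (12 of 21 lowered) lie at the lower end, and interferon-stimulated genes (21 of 37 raised) are second from the top, after a list of only 5 mucins and secreted proteins.

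Of the 21 known YAP/TAZ targets tested, 12 were lowered and 1 was raised, with a median difference of -0.71 against 0.069 over all genes, and without either siY/T sample 12 were lowered and 2 raised. Besides *CCN1*, *CCN2* and *IGFBP3*, *FJX1* fell from 85.8 and 88.9 to 36.96 and 36.2 CPM (-1.25 ± 0.059), *TGFB2* from 36.6 and 37.9 to 16.4 and 20.96 CPM (-0.99) and the kinase gene *NUAK2* from 38.4 and 40.3 to 21.03 and 22.4 CPM (-0.84). *AXL*, a receptor tyrosine kinase, fell by less, from 707 and 699 to 472 and 439 CPM (-0.63), and was not called without siY/T replicate 2. *CRIM1* stayed inside the threshold at -0.50. *F3*, tissue factor, went the other way, from 3.25 and 3.42 to 8.13 and 8.84 CPM (1.23 ± 0.13). *ANKRD1* was low throughout, 1.38 and 1.75 CPM in siCtrl and 0.039 and 0.0966 CPM in siY/T cells. The list is known to respond to YAP/TAZ in other cells, and its direction is thus not an independent result.

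To show where the TEAD letters GGAATG stand on either strand in such genes, the 250 bases before the start of the RefSeq gene model were read on GRCh38.p14 for the 3 called members with the largest falls among those that hold the letters and have a mean of at least 5 CPM. Capitals mark the matches.
CCN2 (chr6:131951373-131951622, minus strand): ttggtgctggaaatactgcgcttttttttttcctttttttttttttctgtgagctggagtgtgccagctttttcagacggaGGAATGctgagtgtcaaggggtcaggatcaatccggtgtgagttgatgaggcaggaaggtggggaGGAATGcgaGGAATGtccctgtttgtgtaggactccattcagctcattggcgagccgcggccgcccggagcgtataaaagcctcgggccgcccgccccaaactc
TGFB2 (chr1:218345086-218345335, plus strand): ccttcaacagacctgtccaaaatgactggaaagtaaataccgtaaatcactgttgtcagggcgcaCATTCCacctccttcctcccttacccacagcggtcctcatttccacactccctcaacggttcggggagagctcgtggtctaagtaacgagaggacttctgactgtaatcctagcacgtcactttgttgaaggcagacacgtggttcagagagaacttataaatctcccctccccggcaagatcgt
NUAK2 (chr1:205321746-205321995, minus strand): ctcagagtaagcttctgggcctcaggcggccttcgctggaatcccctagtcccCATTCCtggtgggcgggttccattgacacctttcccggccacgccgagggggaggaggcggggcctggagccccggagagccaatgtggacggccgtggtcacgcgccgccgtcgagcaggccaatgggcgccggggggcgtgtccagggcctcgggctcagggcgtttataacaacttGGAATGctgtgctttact
*CCN2* holds 3 matches, the first letters of which lie 169, 104 and 95 bases before the start, *NUAK2* 2 and *TGFB2* 1, and none overlaps another motif searched. Of the 21 list members, 15 had a promoter in the table and 5 of these held GGAATG, 33.3%. Among all genes tested with a promoter, 10711 in number, the share was 9.37%, and over all 27305 promoters of the table it was 11.9%. It was 10.1% of the 367 lowered and 10.7% of the 1139 raised genes with a promoter, so the letters in this short window did not set lowered genes apart from raised ones. The AP-1 letters TGANTCA, searched on both strands like the others, were in 3.68% of the promoters of genes tested, 5.99% of the lowered and 5.18% of the raised. YAP and TAZ are known to act largely at distant enhancers, which this window does not cover.

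Among 30 Hippo kinases and adaptors, 7 were lowered and 1 was raised (median -0.21). The lowered count was 5 and the median -0.14 without siY/T replicate 1, and without replicate 2 they were 8 and -0.33. The scaffold genes *FRMD6* (224 and 228 to 97.4 and 114 CPM, -1.09 ± 0.062) and *AJUBA* (144 and 147 to 71.9 and 69.3 CPM, -1.04), the co-factor *VGLL3* (-1.38), the inhibitors *AMOTL2* (-0.95) and *LATS2* (-0.78) and *WWC2* (-0.58) fell with *TEAD1*, and *WWC2* was at -0.42 without siY/T replicate 1 and no longer called. Members of both arms of the pathway, restraining and activating, were thus among the falls. *NF2* was at -0.56 and *LATS1* at -0.10, both inside the threshold. *AMOT*, the X-linked relative of *AMOTL2*, rose from 10.4 and 11.4 to 24.0 and 24.5 CPM (1.12 ± 0.072). The 2 motin genes thus changed in opposite directions, and did so with TMM scaling (*AMOT* 1.06, *AMOTL2* -1.01) and quantile normalization (0.98 and -0.97) as well.

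The keratin pair of simple epithelia lost a large share of a high level. *KRT8* (chr12:53290971-53343738 on GRCh37) went from 2284 and 2205 to 684 and 655 CPM and its partner *KRT18* (chr12:53342655-53346690) from 1047 and 1017 to 339 and 320.4 CPM. The 2 neighbouring genes fell by similar amounts, -1.74 ± 0.051 and -1.65 ± 0.049 (P adj = 1.8e-10 for both). Their gene models overlap at one end on opposite strands, where reads counted without strand would be shared. The tight junction gene *CLDN1* fell from 133 and 127 to 57.5 and 61.6 CPM (-1.12), and the desmosomal genes *DSP* (-0.76) and *PKP2* (-0.65) also fell, the last not without siY/T replicate 1. Of 19 epithelial genes 6 were lowered and 3 raised, the latter *MUC16*, *MUC1* (0.59) and *CDH1*, which encodes E-cadherin and remained low at 0.653 and 0.954 CPM in siCtrl and 1.89 and 2.39 CPM in siY/T cells. The list's median turned from -0.12 to 0.028 without siY/T replicate 1, so it gives no stable direction, and the lowered count was 4 without that sample and 7 without replicate 2. Of 19 mesenchymal genes 2 were lowered and 2 raised, against 1 and 3 without siY/T replicate 1 and 1 and 4 without replicate 2. The mesenchymal median was 0.22, against 0.069 over all genes, and 16 of the 19 genes were higher. *VIM* was at 0.087 ± 0.053, *CDH2* at 0.26 and *FN1* at 0.48, all 3 not called. The repressor *ZEB1* fell from 14.96 and 16.1 to 7.84 and 11.5 CPM (-0.68), a call lost without siY/T replicate 1.

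Genes of growth factor signalling went both ways. Of 25 genes of FGF, PDGF and VEGF signalling 4 were lowered and 5 raised (median 0.19), of 13 EGF ligands and ERBB receptors 3 and 2 (median 0.069) and of 13 genes of the IGF axis 2 and 3 (median 0.31). These lists held 4 and 7, 3 and 3, and 3 and 3 without siY/T replicate 1, where the FGF list's median was 0.056. With replicate 2 left out they held 4 and 5, 3 and 3, and 2 and 2. Among the ligands, *FGF2* went from 132 and 129 to 64.0 and 70.9 CPM (-0.95 ± 0.059), *FGF5* from 97.3 and 100.2 to 50.2 and 61.7 CPM (-0.82) and *NRG1*, the neuregulin that binds ERBB3, from 48.7 and 48.8 to 29.5 and 28.6 CPM (-0.74). *FGF1* and *HBEGF* fell too, as given above. *EREG* (-0.36), *AREG* (0.057) and *TGFA* (0.18) were not called. The receptor genes *EGFR* (-0.045 ± 0.067), *MET* (-0.30) and *FGFR1* (-0.11) were not called either, *ERBB3* fell from 70.8 and 70.6 to 23.0 and 25.6 CPM (-1.52 ± 0.065) and *FGFR4*, the receptor of bile acid regulation in liver, rose from 22.0 and 21.1 to 49.0 and 45.9 CPM (1.12). *LRIG3*, in the list of EGF ligands and ERBB receptors, rose from 45.3 and 51.8 to 115 and 121 CPM (1.28). In the IGF axis, *PAPPA*, a protease that cuts IGF-binding proteins, fell from 74.6 and 73.9 to 28.6 and 29.9 CPM (-1.33 ± 0.068), and *IGFBP7* rose from 103 and 106 to 271 and 263 CPM (1.35), opposite to *IGFBP3*. *VEGFA* (0.66) and *PDGFC* (0.59) rose, the last not without siY/T replicate 2, and *ANGPTL4* fell (-0.87).

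Chemokines and cytokines split, with 7 of 24 lowered and 6 raised (median -0.21). Beside *CXCL5*, the monocyte chemokine *CCL2* fell from 187 and 183 to 111 and 94.0 CPM (-0.85 ± 0.064), *CXCL2* from 2.16 and 2.55 to 0.449 and 0.386 CPM and *IL6* from 1.32 and 1.46 to 0.429 and 0.459 CPM. *BIRC3*, an inhibitor of apoptosis that NF-kB induces, fell from 48.6 and 41.6 to 14.1 and 14.6 CPM (-1.61 ± 0.095). *CX3CL1* rose from 35.98 and 33.7 to 66.2 and 60.95 CPM (0.86). The rises held less firmly, since the calls of *IL11* (0.70), *IL15* (0.63) and *IL32* (0.63) were lost with quantile normalization and without siY/T replicate 1, with either of which 2 of the 24 were raised. The lowered count was 7 without either siY/T sample, and the raised count 6 without replicate 2.

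Genes of amino acid supply and protein synthesis were among the falls. ATF4 is the transcription factor of the integrated stress response, and it induces amino acid transporters and the enzymes of serine and asparagine synthesis. Of 36 known ATF4 targets 9 were lowered and 5 raised (median -0.31). Without siY/T replicate 1, 10 were lowered (median -0.35), and without replicate 2, 7 (median -0.19), with 5 raised each time. *SLC7A5*, the large neutral amino acid transporter, went from 114 and 100.5 to 34.5 and 31.4 CPM (-1.69 ± 0.088), *ASNS*, asparagine synthetase, from 99.6 and 89.2 to 36.4 and 28.7 CPM (-1.53 ± 0.12) and *PSAT1* of the serine pathway from 171 and 167 to 83.8 and 68.7 CPM (-1.15 ± 0.093). The cystine transporter *SLC7A11* (-1.49), *CBS* (-0.89), the mitochondrial folate enzyme *MTHFD2* (-0.78) and *PHGDH* (-0.63) fell as well, the last not without siY/T replicate 2. The members that rose were stress regulators and secreted signals and not biosynthetic genes. *SESN2*, an inhibitor of mTORC1, rose from 9.21 and 9.90 to 28.6 and 27.6 CPM (1.51 ± 0.071), *DDIT4*, another, from 16.5 and 17.6 to 34.8 and 30.3 CPM (0.91), and *GDF15* from 5.05 and 4.97 to 9.09 and 9.10 CPM (0.80), with *NUPR1* (1.37) and *VEGFA*. The stress genes *DDIT3* (-0.15), *TRIB3* (-0.37) and *CHAC1* (-0.34) stayed inside the threshold, as did *HSPA5* (0.068) and *XBP1* (0.19) of the unfolded protein response, in which 1 of 30 genes was raised, 2 without siY/T replicate 2, and none lowered.

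*ASNS* is shown because it is the lowered member of the list, with a mean of at least 5 CPM, that holds the letters TGATGNAA of the element that binds ATF4 with C/EBP factors (CARE) in the 250 bases before its RefSeq start, here in capitals.
ASNS (chr7:97872409-97872658 on GRCh38.p14, minus strand): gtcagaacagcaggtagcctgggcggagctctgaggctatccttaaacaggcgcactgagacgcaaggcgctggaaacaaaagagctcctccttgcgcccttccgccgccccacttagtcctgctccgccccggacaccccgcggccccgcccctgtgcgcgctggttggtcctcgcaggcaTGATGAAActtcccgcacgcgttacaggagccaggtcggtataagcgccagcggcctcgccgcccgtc
The match begins 68 bases before the start. TGATGNAA on either strand was in 3 of the 30 promoters of ATF4 targets, 10.0%, in 2 of the 16 of aminoacyl-tRNA synthetases, 12.5%, in 1.43% of those of all genes tested and in 3.19% of all promoters. It was in 3.54% of the promoters of lowered and 2.02% of those of raised genes.

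All 5 called aminoacyl-tRNA synthetases fell, of 20 tested (median -0.40). *YARS1* went from 283 and 281 to 174 and 157 CPM (-0.77 ± 0.055), *IARS1* from 449.9 and 448 to 296 and 287 CPM (-0.62), and *EPRS1* (-0.70), *GARS1* (-0.66) and *MARS1* (-0.60) lay near the threshold, the call of each depending on 1 siY/T sample. Without siY/T replicate 1 there were 4 and without replicate 2 there were 3. *WARS1* (-0.23) and *AARS1* (-0.14) were not called. Ribosome biogenesis gave 4 falls and no rise among 33 genes (median -0.42). The nucleolar *NPM1* went from 1642 and 1710.0 to 925 and 912 CPM (-0.87 ± 0.038, P adj = 3.0e-09), *NCL*, nucleolin, from 1010.1 and 1056 to 656 and 688 CPM (-0.62), *NOP56* from 392 and 395 to 261 and 245 CPM (-0.63) and *WDR43* from 126 and 129 to 74.3 and 79.4 CPM (-0.73). *MYC* itself stayed inside the threshold (137 and 136 to 105 and 99.0 CPM, -0.42). For the ribosomal proteins themselves, 63 of 64 were lower and none passed the threshold (median -0.27), nor did any of the 49 mitochondrial ribosomal proteins (median -0.16). Without siY/T replicate 1, 8 ribosome biogenesis and 2 cytosolic ribosomal protein genes were lowered, and without replicate 2, 6 and 0. With TMM scaling 9 ribosome biogenesis genes, 4 cytosolic and 1 mitochondrial ribosomal protein were lowered.

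Heat shock chaperones fell in 8 of 27 cases and rose in none (median -0.39). The HSP90 co-chaperone *FKBP4* went from 190.2 and 194 to 90.4 and 79.7 CPM (-1.17 ± 0.053), and the mitochondrial chaperones *HSPD1* from 1043 and 1089 to 637 and 649 CPM (-0.73 ± 0.04) and *HSPA9* from 912 and 930.1 to 569 and 558 CPM (-0.71 ± 0.037). *DNAJB6* (-0.84), *HSPB8* (-0.83) and *HSP90AA1* (-0.67) fell too, the last not without siY/T replicate 1. The heat-inducible *HSPA1A* (0.057 ± 0.069) and *DNAJB1* (0.15) were not called and *HSPB1* was higher at 0.56, inside the threshold. Without siY/T replicate 1, 5 members were lowered, and without replicate 2, 10 were lowered and 1 raised.

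In redox and metal handling, 4 of 24 NRF2 targets fell and 2 rose, against 5 and 3 without siY/T replicate 1 and 3 and 3 without replicate 2. *TXNRD1*, thioredoxin reductase, went from 353 and 353 to 211 and 197 CPM (-0.79 ± 0.05) and *GCLM*, a subunit of the enzyme that starts glutathione synthesis, from 46.8 and 48.5 to 29.7 and 29.0 CPM (-0.69). *NQO1*, the best known target, was at 243 and 218 and 248 and 207 CPM (-0.024 ± 0.082), and the drug exporter *ABCC3* rose from 6.25 and 5.30 to 19.99 and 19.2 CPM (1.68). The calls of this list thus went both ways, but 16 of the 24 genes were lower and the median was -0.27. The lowered share was 16.7% against 3.61% of all genes, and the raised share 8.33% against 11.0%. Metallothioneins *MT2A* (338 and 326 to 188 and 175 CPM, -0.87) and *MT1E* (-0.72) fell and *MT1X* (0.086) was not called. Glycolysis and the hypoxia response held 4 falls among 31 genes, *ADM*, adrenomedullin (44.1 and 44.03 to 12.6 and 13.7 CPM, -1.71 ± 0.10), *HK2* (-0.95), *PFKP* (-0.76) and *ENO2* (-0.74), and *LDHA* (-0.099) and *SLC2A1* (0.086) were not called. Of the 38 ferroptosis genes 6 were lowered and 4 raised.

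Proliferation genes were not called, with few exceptions. None of 40 DNA replication genes passed the threshold (median -0.15), although 35 were lower and 3 were lowered with TMM scaling. *PCNA* was at 414 and 418 and 412 and 397 CPM (-0.04 ± 0.038) and *MCM2* at -0.087. In mitosis, the cytokinesis scaffold *ANLN*, a known YAP/TAZ-responsive gene, fell from 576 and 608 to 279 and 379.9 CPM (-0.86 ± 0.098). It was the only call among 40 genes (median -0.14), 32 of which were lower. *MKI67* stood at 1015 and 1079.6 in siCtrl and 780.1 and 1141 CPM in siY/T cells, and its 2 siY/T values lay on either side of the siCtrl values. Without either siY/T sample 1 DNA replication gene was lowered, and without replicate 2, 4 mitosis genes were. Of the G1 regulators, *SKP2*, which marks the CDK inhibitor p27 for destruction, fell (23.5 and 23.0 to 14.8 and 14.2 CPM, -0.66), and *CDKN1B*, which encodes p27, rose (38.6 and 38.2 to 64.4 and 63.7 CPM, 0.73 ± 0.05), as did *CDKN2C* (0.86). *CCND1* (0.11) and *CDKN1A* (0.071) were not called. Cholesterol synthesis held no call among 27 genes (median -0.068; 1 rise without siY/T replicate 2) and the respiratory chain 1 among 46, *CYCS*, cytochrome c (-0.64). A median near 0 in these lists depends on the scaling, and that of the respiratory chain was 0.0037 as deposited and -0.057 with TMM.

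Interferon-stimulated genes had the highest share of raised members among the lists with over 5 tested genes. These genes are switched on by a complex that holds STAT2 and IRF9 after type I interferon and encode antiviral proteins. Of 37 tested 21 were raised, 56.8% against 11.0% of all genes, and none was lowered (median 0.66). *GBP2*, a guanylate-binding GTPase, went from 1.31 and 1.62 to 9.27 and 7.75 CPM (2.20 ± 0.12) and *IFIT1* from 2.67 and 3.15 to 8.89 and 9.59 CPM (1.52 ± 0.096, P adj = 4.7e-08). Both were low in siCtrl cells. *IFI44* rose from 5.43 and 5.53 to 14.2 and 12.6 CPM (1.21), *OAS1* from 5.45 and 5.81 to 12.1 and 11.4 CPM (0.996) and *UBE2L6*, the conjugating enzyme of ISG15, from 35.4 and 34.8 to 70.8 and 66.8 CPM (0.96). Of the factors themselves, *IRF9* rose from 25.98 and 26.9 to 58.6 and 56.1 CPM (1.102 ± 0.063, P adj = 1.9e-08) and *STAT2* from 45.7 and 46.4 to 76.6 and 77.3 CPM (0.73). *ISG15* (0.64) and *MX1* (0.67) rose to a smaller extent, and *ISG15* was not called without siY/T replicate 1. The count was 20 without siY/T replicate 1, 21 without replicate 2, 20 with TMM scaling and 16 with quantile normalization. The medians in the single siY/T samples against the mean of siCtrl were 0.61 and 0.74. Of 3 immune cell markers *PTPRC* and *CD3E* had no read in any of the 4 samples, and *CD68* was at 19.8 and 21.1 CPM in siCtrl and 32.4 and 26.3 CPM in siY/T cells (0.51, not called). The part of *CD68*-positive cells or of *CD68* itself in the rise was not tested.

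The letters GAAANNGAA, the core of the interferon-stimulated response element (ISRE), are shown in capitals, as read or on the other strand, in the 3 called members with the largest rises among those that hold them and have a mean of at least 5 CPM.
IFIT1 (chr10:89392373-89392622 on GRCh38.p14, plus strand): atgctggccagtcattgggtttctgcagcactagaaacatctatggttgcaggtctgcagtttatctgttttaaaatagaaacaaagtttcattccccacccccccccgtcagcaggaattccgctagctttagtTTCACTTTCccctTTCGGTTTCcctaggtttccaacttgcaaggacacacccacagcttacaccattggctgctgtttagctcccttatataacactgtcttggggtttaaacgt
IFI44 (chr1:78649539-78649788, plus strand): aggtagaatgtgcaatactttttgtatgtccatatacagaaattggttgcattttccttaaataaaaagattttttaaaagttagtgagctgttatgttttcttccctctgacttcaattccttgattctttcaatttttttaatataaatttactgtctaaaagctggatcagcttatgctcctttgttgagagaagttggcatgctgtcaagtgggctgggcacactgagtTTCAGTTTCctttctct
GBP1 (chr1:89065209-89065458, minus strand): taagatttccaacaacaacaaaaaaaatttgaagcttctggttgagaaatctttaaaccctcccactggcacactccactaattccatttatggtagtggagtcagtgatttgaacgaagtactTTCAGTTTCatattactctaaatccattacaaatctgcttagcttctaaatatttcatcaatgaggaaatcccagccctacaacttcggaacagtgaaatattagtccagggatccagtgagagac
*IFIT1* holds 2 matches beginning 115 and 102 bases before the RefSeq start, *IFI44* 1 at 17 bases and *GBP1* 1 at 126 bases, all on the other strand. Of the list, 29 genes had a promoter and 13 of these held the letters, 44.8%, against 5.46% of the genes tested and 7.06% of all 27305 promoters. The MHC class I list held them in 7 of 17 promoters, 41.2%. Of all lowered genes 6.81% and of all raised genes 6.58% held them, so the letters did not set raised genes as a whole apart.

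Antigen presentation by MHC class I rose in 8 of 21 genes and fell in none (median 0.51). *NLRC5*, the transactivator of class I genes, went from 6.47 and 5.81 to 12.1 and 12.3 CPM (0.94 ± 0.076), the peptide-loading protein *TAPBPL* from 9.19 and 9.03 to 22.1 and 20.2 CPM (1.17) and the trimming peptidase *ERAP1* from 137 and 133 to 213 and 219 CPM (0.68). The class I genes *HLA-B* (0.48) and *HLA-C* (0.53), which are near-identical copies that unique reads may not separate, were higher inside the threshold, while *B2M* (0.11 ± 0.053) and *TAP1* (-0.24) were not called. Many of these differences sit close to 0.58, and 5 genes were raised without siY/T replicate 1, 10 without replicate 2 and 4 with TMM scaling.

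**Figure D4:**
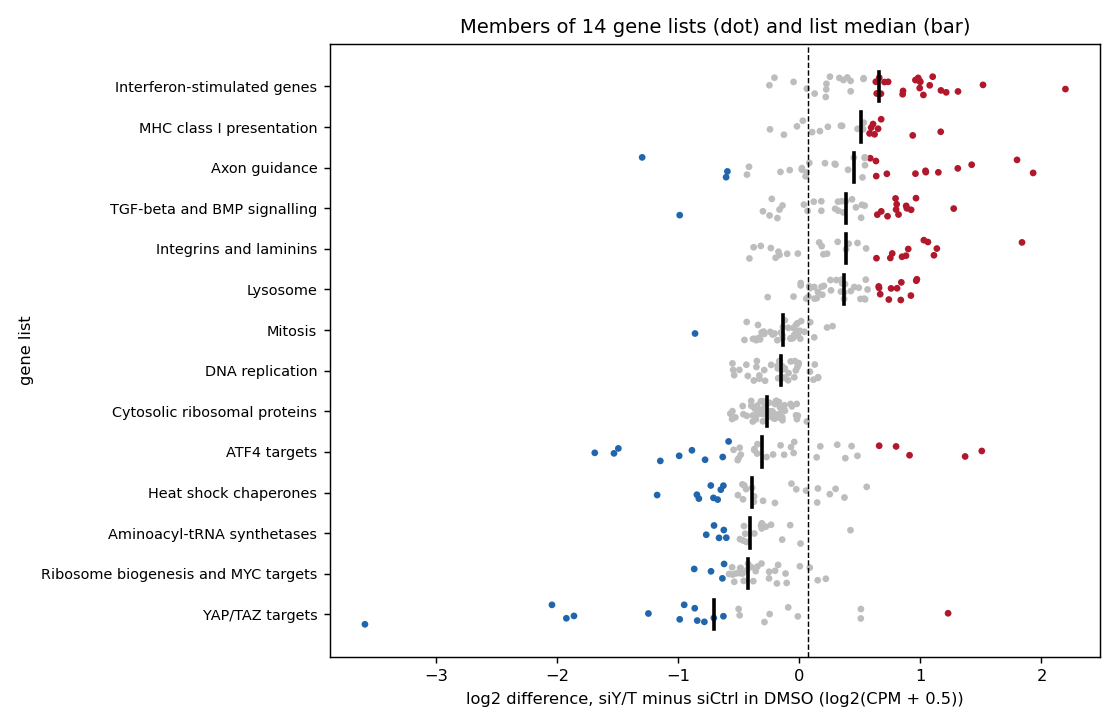
Log2 differences between siY/T and siCtrl cells in DMSO (horizontal) for each tested member of 14 lists (dots; red raised, blue lowered, grey neither), with a bar at each list's median and a dashed line at the median of all genes, 0.069. Interferon-stimulated genes (median 0.66) lie furthest to the right and YAP/TAZ targets (median -0.71) furthest to the left of the 14. The medians of DNA replication (-0.15) and mitosis (-0.14) lie left of the dashed line, and *ANLN* (-0.86) is the only called gene of these 2 lists.

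Of 43 lysosomal genes 11 were raised and none lowered, and 41 were higher (median 0.37). The sphingomyelinase gene *SMPD1* went from 28.3 and 27.9 to 54.0 and 47.7 CPM (0.84 ± 0.059, P adj = 1.1e-07) and *NAGLU* from 24.8 and 23.5 to 43.2 and 42.0 CPM (0.81). Of the MiT/TFE transcription factors that drive lysosomal genes, *TFEB* rose from 17.6 and 17.2 to 34.6 and 32.4 CPM (0.92 ± 0.062) and *MITF* from 58.0 and 61.9 to 106 and 132 CPM (0.97). The cathepsin genes *CTSB* (0.54) and *CTSD* (0.36) and *LAMP1* (0.15) were higher inside the threshold. The count was 11 without siY/T replicate 1 and with TMM scaling, 13 without replicate 2 and 10 with quantile normalization. Of the autophagy machinery 3 of 32 genes were raised, 9.38% and thus near the background, with *SQSTM1* at -0.30 and *MAP1LC3B* at -0.16.

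Matrix and adhesion genes changed in both directions. Integrins and laminins rose in 11 of 29 cases and fell in none (median 0.39; 12 and 10 without siY/T replicates 1 and 2). *ITGB8*, whose integrin releases latent TGF-beta, went from 2.82 and 2.60 to 8.89 and 13.5 CPM (1.84 ± 0.18), the laminin chain *LAMB1* from 501 and 519 to 915 and 991 CPM (0.90 ± 0.05), tenascin *TNC* from 526 and 505 to 1083 and 1021 CPM (1.03 ± 0.053) and osteopontin, *SPP1*, from 81.1 and 91.7 to 179.7 and 201.1 CPM (1.14). The fibronectin receptor chain *ITGA5* rose (218 and 208 to 384 and 335 CPM, 0.75), and *ITGB1*, the common partner chain, did not pass the threshold (-0.099 ± 0.057). Of the collagens and their processing enzymes 9 of 34 rose and 6 fell. The fibrillar *COL1A1* (27.6 and 29.8 to 50.7 and 50.3 CPM, 0.81) and *COL1A2* (568 and 539 to 980.1 and 945 CPM, 0.80 ± 0.057) and the collagen chaperone *SERPINH1* (161 and 146 to 330.1 and 299 CPM, 1.03 ± 0.053) rose. The cross-linking enzymes *LOX* (8.28 and 7.39 to 2.73 and 2.90 CPM, -1.33 ± 0.093) and *PLOD2* (151 and 154 to 64.0 and 77.8 CPM, -1.10) fell, while *LOXL1* rose (0.98), so enzymes of 1 family moved apart. Among proteases and their inhibitors, the urokinase receptor gene *PLAUR* (20.98 and 20.6 to 13.7 and 10.8 CPM, -0.75 ± 0.11) and the collagenase gene *MMP1* (-0.70, not without siY/T replicate 2) fell. *TIMP1* (115 and 117 to 212 and 185 CPM, 0.77) and *SERPINE2* (1.0999) rose. Of the actin genes 4 of 35 rose, 11.4% and thus near the 11.0% of all genes, namely *FLNA*, *MYL9*, *PDLIM7* and *ACTA2*, and *CDC42EP3* (-1.14) and *CALD1* (-0.86) fell. *FLNA* (0.61) and *PDLIM7* (0.63) were not called with TMM scaling, the last not without siY/T replicate 1 either, and *MYL9*, a myosin light chain, was (611 and 590.4 to 1123 and 1068 CPM, 0.87 ± 0.045).

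TGF-beta and BMP signalling held 12 rises and 1 fall among 35 genes (median 0.38). The ligand genes went apart, *TGFB2* falling as above, *TGFB3* rising from 2.24 and 2.35 to 7.003 and 5.603 CPM (1.28 ± 0.11) and *TGFB1* at 0.36, inside the threshold. The inhibitory SMAD genes *SMAD7* (39.2 and 38.7 to 64.9 and 60.3 CPM, 0.68) and *SMAD6* (0.82) and the feedback genes *SKIL* (0.92) and *PMEPA1* (0.88) rose. *ID1*, a BMP target, rose from 127 and 114 to 290.1 and 190.03 CPM (0.96 ± 0.17), with siY/T values well apart from each other. Without either siY/T sample the raised count was 14 or 12.

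Genes that report ERK activity went both ways. They are switched on by the RAF-MEK-ERK cascade, and the DUSP and Sprouty proteins feed back on it. Of 35 tested 9 were raised, 25.7%, and 3 lowered, 8.57% (median 0.20), so rises outnumbered falls about as they did over all genes. The counts were 8 and 5 without siY/T replicate 1, and without replicate 2 they were 11 and 2. *EGR1* went from 5.203 and 5.97 to 35.8 and 33.0 CPM (2.52 ± 0.12), the ERK phosphatase *DUSP6* from 2.89 and 2.77 to 9.21 and 8.19 CPM (1.46 ± 0.089) and *SPRY4* from 4.21 and 4.33 to 14.7 and 11.2 CPM (1.48). The PEA3 factors rose as a family, *ETV1* from 3.11 and 2.97 to 12.8 and 14.3 CPM (1.98 ± 0.12), *ETV5* from 7.83 and 7.92 to 16.9 and 15.6 CPM (0.998) and *ETV4* from 4.57 and 4.44 to 8.62 and 6.96 CPM (0.72), the last only with siY/T replicate 1 and not with quantile normalization. *FOSL1*, an AP-1 subunit, fell from 215 and 199 to 141 and 114 CPM (-0.70), a call lost without siY/T replicate 2, with *DUSP7* (-0.96) and *MAFF* (-0.88). The AP-1 subunits went both ways, since *FOS* (0.392 and 0.377 to 1.76 and 1.96 CPM, 1.41 ± 0.13) and *JUNB* (0.86) rose and *JUN* was lower at -0.58, just inside the threshold.

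Developmental pathways carried some of the larger rises. In the Wnt pathway 7 of 29 genes rose and 3 fell, against 8 and 3 without siY/T replicate 1 and 7 and 3 without replicate 2. The receptor *FZD4* went from 12.05 and 13.3 to 41.3 and 42.6 CPM (1.69 ± 0.07), *FZD8* from 18.0 and 16.8 to 43.7 and 45.0 CPM (1.32) and the R-spondin receptor *LGR4* from 103 and 109.5 to 230.5 and 257 CPM (1.19). The ligands *WNT7B* (17.7 and 18.1 to 52.4 and 56.4 CPM, 1.58) and *WNT5A* (52.9 and 54.8 to 106 and 122 CPM, 1.07) rose as well, and the receptor kinase *ROR1* (-1.27) and the ligands *WNT2B* (-0.72) and *WNT10B* (-1.13) fell. *CTNNB1*, beta-catenin, was not called (0.024 ± 0.038). Axon guidance genes rose in 12 of 33 cases and fell in 3 (median 0.45), and in 11 and 1 without siY/T replicate 2. *EPHA4* went from 35.8 and 38.3 to 123 and 138 CPM (1.80 ± 0.067, P adj = 9.0e-10), the repellent *SLIT2* from 2.03 and 2.42 to 10.2 and 9.59 CPM (1.93 ± 0.11) and its receptor *ROBO2* from 15.1 and 15.2 to 37.74 and 45.5 CPM (1.42), with 6 semaphorins, *SEMA3F* (1.31) the most changed. *NTN4*, a netrin, fell from 246 and 249.8 to 93.1 and 109 CPM (-1.30 ± 0.077). In the Notch pathway the ligand *JAG1* rose from 7.89 and 7.68 to 23.5 and 24.4 CPM (1.56 ± 0.085) and *LFNG* from 95.0 and 81.3 to 187 and 159 CPM (0.97), *NOTCH1* was not called (-0.014) and *DLL3* fell (-0.93).

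Ion transport held 6 rises among 18 genes and no fall (median 0.31; 7 and 6 rises without siY/T replicates 1 and 2). Beside *FXYD2*, its relative *FXYD6* rose from 0.578 and 0.466 to 2.96 and 2.56 CPM, the water channel *AQP1* from 0.186 and 0.466 to 2.56 and 2.03 CPM and the epithelial sodium channel subunit *SCNN1A* from 0.28 and 0.577 to 1.29 and 1.11 CPM, all from levels under 1 CPM. *ATP1B1*, the beta subunit of the Na,K-ATPase, stayed inside the threshold (0.25). Clusterin, *CLU*, rose from 274 and 265 to 645 and 578 CPM (1.18 ± 0.063). Of 26 nuclear receptor and clock genes 9 rose and 1 fell (median 0.38). The PAR bZIP factors, which are outputs of the circadian clock, rose as a group: *HLF* from 3.56 and 4.22 to 13.01 and 13.9 CPM (1.67 ± 0.09), *DBP* from 5.04 and 5.53 to 11.2 and 13.4 CPM (1.14) and *TEF* from 10.1 and 10.03 to 18.6 and 18.3 CPM (0.84). *NR2F1* (0.82) and *NR2F2* (0.94) rose, *CRY1* fell (47.5 and 48.9 to 27.8 and 27.5 CPM, -0.79) and *NR1D1* (0.36) and *PER1* (0.25) were not called.

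Cell death regulators moved singly. The BH3-only genes *BMF* (23.4 and 25.2 to 115 and 109.5 CPM, 2.19 ± 0.13), *BCL2L11*, which encodes BIM (7.40 and 7.54 to 13.3 and 13.1 CPM, 0.78), and *BBC3*, which encodes PUMA (3.15 and 3.24 to 5.99 and 6.11 CPM, 0.83), rose. *PMAIP1* (-0.091), *MCL1* (0.21) and *BCL2L1* (0.0061 ± 0.044) were not called. Of 23 p53 targets 5 rose and 1 fell, or 2 without either siY/T sample, with *MDM2* (-0.059) and *CDKN1A* not called; those that rose were *SESN2* and *BBC3* above, *TP53INP1* (1.01), *FDXR* (0.77) and *TP53I3* (0.65), and *GADD45A* fell (-0.71).

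The same siRNAs were compared in Sorafenib with 4 other samples, so the 2 comparisons share none. There siY/T lowered 519 genes (3.84%) and raised 826 (6.11%). Of the 488 genes lowered in DMSO 260 were also lowered in Sorafenib, 475 were lower and none was raised; of the 1485 raised, 657 were also raised, 1397 were higher and 3 were lowered. The 2 effects differed for 2978 genes (22.0%) by the interaction term at P adj under 0.05. This count was 1581 without siCtrl DMSO replicate 2 and 4575 without siY/T DMSO replicate 2, so it rests on single samples. Among the raised genes 668 differed, and in 650 the difference was towards a lower value in Sorafenib; among the lowered genes 199 differed, in 156 towards a higher value. Since these genes were chosen for their change in DMSO, that tilt is a description only.

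The 5 smallest interaction P adj and the 5 largest interaction differences, among genes with at least 5 CPM, named 8 genes. *MYL9* rose in DMSO (0.87) and not in Sorafenib (-0.024), with an interaction of -0.89 (limma P adj = 8.9e-06). *CNN1*, calponin, was at 0.37 in DMSO, inside the threshold, and fell in Sorafenib (-1.41, interaction P adj = 1.7e-06), and *JUND* was at 0.53 and fell in Sorafenib (-0.76, interaction P adj = 1.7e-06). *OLFML2A* was raised in DMSO (0.91) and at -0.46 in Sorafenib, *FLT4*, a VEGF receptor, was at -0.53 and -2.11, and *MAP2K6*, a kinase of the p38 pathway, at 2.29 and 0.75. *EGR1* rose in DMSO and was under 1 CPM in all 4 Sorafenib samples, so its 0.61 there depends on the pseudocount, and *MUC16* rose by 1.59 from siCtrl values already higher in Sorafenib. Of the gene groups above, heat shock chaperones and ribosome biogenesis held 2 of 27 and 0 of 33 lowered genes in Sorafenib, with medians of -0.11 and -0.065. The interaction passed for *NCL* (0.56, P adj = 1.2e-04), *NPM1* (0.43, P adj = 2.9e-04) and *FKBP4* (0.46, P adj = 0.0014). Interferon-stimulated genes were raised in 8 of 37 cases in Sorafenib (median 0.41), with an interaction for *IFIT1* (-1.23, P adj = 1.4e-04), *GBP2* (-1.33, P adj = 2.7e-04) and *IRF9* (-0.59, P adj = 8.1e-04) and none called for *IFI44* (-0.33, P adj = 0.14). Of the 21 YAP/TAZ targets 12 were lowered and 2 raised in Sorafenib (median -0.64), and the interaction passed for 8. *TGFB2*, lowered in DMSO, was not called there (-0.49), nor was *F3* (0.39), which rose in DMSO. *SLC7A5* was at -1.71 and *YARS1* at -0.71.

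**Figure D5:**
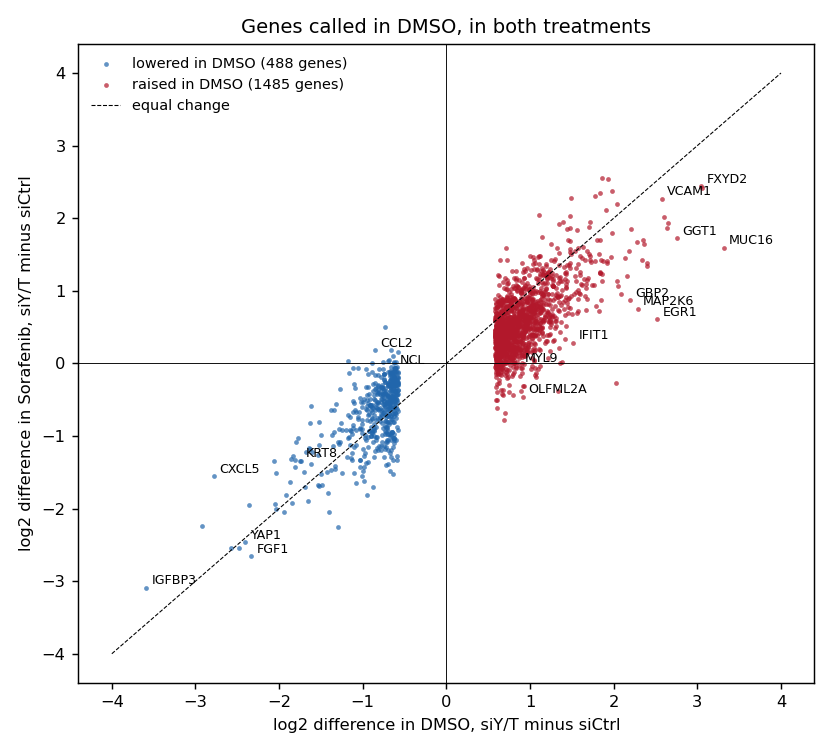
Log2 differences between siY/T and siCtrl cells in DMSO (horizontal) and in Sorafenib (vertical) for the genes called in DMSO (488 lowered in blue, 1485 raised in red), with a dashed line of equal change. Of the lowered points 475 and of the raised points 1397 keep their side of 0 in Sorafenib, *EGR1*, *MAP2K6* and *IFIT1* lie far below the line, and *MYL9* and *CCL2* lie near or across 0.

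Knockdown of ATF4 in DMSO is set beside siY/T only by values, because both comparisons use the same 2 siCtrl samples. *ASNS* was at -1.53 with siY/T and -1.42 with siATF4, *PSAT1* at -1.15 and -1.14 and *SLC7A5* at -1.69 and -1.12. For *YARS1* the values were -0.77 and 0.09, for *NPM1* -0.87 and 0.22 and for *HSPD1* -0.73 and 0.0051. Of the largest rises, *MUC16* was at 3.32 and -3.91, *FXYD2* at 3.05 and -1.64, *GGT1* at 2.76 and -2.29, *MAP2* at 2.64 and -2.17 and *CYS1* at 2.60 and -1.01. The interferon-stimulated genes *GBP2* (2.20 and -1.17), *IFIT1* (1.52 and -2.25) and *IFI44* (1.21 and -0.54) and the ERK phosphatase gene *DUSP6* (1.46 and 2.33) complete the pairs. Fold changes from very low values, such as that of *FXYD2*, are understated on this scale.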

How the data were processed

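Poly(A) RNA of HLE cells was sequenced in 12 samples, of which the 4 siCtrl and siY/T DMSO samples were compared here. The deposited CPM values were made by the authors, who aligned reads to hg19 with STAR, kept uniquely mapped reads, assigned them to RefSeq mRNA exons and divided by the reads on genes. Whether the counting used strand was not given in the sources used here, so overlapping and antisense genes may share reads. The labels name a stranded mRNA kit and the methods a total RNA kit. For all 12 samples 100% of the CPM values came out as whole reads, within 0.001 of a read. Genes with at least 1 CPM in 2 samples were fitted in limma 3.58.1 (R 4.3.3) on log2(CPM + 0.5), with 1 mean for each of the 6 groups over all 12 samples. Genes were called at P under 0.05 with a change of at least 0.58, the authors' rule, and adjusted P values follow Benjamini-Hochberg. The interaction is the siY/T effect in Sorafenib minus that in DMSO. The fit was also run on simulated data with the same spread in every group. In the real data the siY/T DMSO samples differed most, so that run does not test the calls under their spread. Scaling by TMM, quantile normalization, other pseudocounts and filters, left-out samples, a replicate block, and edgeR 4.0.16 and DESeq2 1.42.0 on the recovered reads were run as alternatives.

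The genes named are YAP1, WWTR1 and the TEAD genes, the 15 largest falls and rises that averaged 5 CPM or more among called genes and stayed called without either siY/T sample, key members of each list with up to 5 called members of largest change and at least 5 CPM, and the 5 smallest P and 5 largest differences of the interaction. For the 15 largest falls and rises, no overlap between the siY/T and siCtrl samples was required too. Another 32 tested genes outside this rule were chosen after their values were seen, namely ACTA2, AQP1, CD68, COL1A2, CRY1, CXCL2, DDIT4, DLL3, DSP, DUSP7, FGB, FXYD6, GBP2, JUNB, MAFF, MUC1, NAGLU, NR2F1, NUAK2, OAS1, PDGFC, ROR1, SCNN1A, SERPINA1, SMAD6, STAT2, TGFB3, UBE2L6, VGLL3, WNT10B, WNT2B and WWC2. The lists, and the comparison itself, were chosen with earlier results of these data known. Promoters are the 250 bases before each RefSeq start on GRCh38.p14, with an entry for 10711 of the 13515 genes tested, and gene positions are those of GENCODE on GRCh37. Some genes are not reported here.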

Additional observations from a re-analysis of the deposited data

Results flagged for a closer look

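Of the 262 tested genes named above, 129 had an effect of siY/T in Sorafenib that differed from that in DMSO by limma's interaction term, at a Benjamini-Hochberg adjusted P under 0.05 over all genes tested, where 22.0% of all genes passed. The value given for each is the log2 change in Sorafenib minus that in DMSO, and it was negative for 86 and positive for 43. Some of these genes were named for their interaction and many for a large change in DMSO. Neither their share nor the sign is thus independent of how they were chosen. For YAP/TAZ targets and Hippo adaptors it was found in *IGFBP3* (0.49), *CCN2* (0.53), *CRIM1* (0.30), *F3* (-0.84), *FJX1* (-0.26), *GADD45A* (-0.37), *TGFB2* (0.50), *AMOT* (-0.32), *AMOTL2* (0.30), *FRMD6* (0.45) and *VGLL3* (0.73). For the cell cycle, p53 and BCL2 lists it was found in *PCNA* (0.18), *CCND1* (0.56), *CDKN1A* (-0.54), *CDKN1B* (-0.23), *CDKN2C* (0.29), *BBC3* (-0.66), *FDXR* (-0.45), *SESN2* (-0.83), *TP53I3* (-0.31), *TP53INP1* (-0.61), *BMF* (-0.63), *BIRC3* (1.02) and *PMAIP1* (-0.49). For collagens and collagen processing it was found in *COL1A1* (-0.46), *LOXL1* (-0.69), *PLOD2* (0.82) and *SERPINH1* (-0.26). For integrins, laminins and matrix proteases it was found in *FN1* (-0.59), *ITGA5* (-0.33), *TNC* (-0.52), *ADAMTS15* (-0.96) and *SERPINE2* (-0.53). For actin and mesenchymal genes it was found in *CNN1* (-1.78), *MYL9* (-0.89), *ACTA2* (-0.64), *FLNA* (-0.67), *PDLIM7* (-0.90) and *VIM* (-0.32). For epithelial and ion transport genes it was found in *MUC16* (-1.72), *CDH1* (-0.84), *CLDN1* (0.45), *KRT18* (0.48), *KRT8* (0.40), *MUC1* (-0.58), *FXYD2* (-0.61), *FXYD6* (-0.59) and *CLU* (-0.90). For TGF-beta and BMP signalling it was found in *GDF15* (-1.24), *PMEPA1* (-1.06), *SMAD6* (-0.40) and *SMAD7* (-0.38). For growth factors and their receptors it was found in *HBEGF* (0.71), *FLT4* (-1.57), *FGF2* (0.51), *FGF5* (0.52), *FGFR1* (0.19) and *VEGFA* (-0.72). For ERK feedback and immediate early genes it was found in *EGR1* (-1.91), *JUND* (-1.28), *DUSP7* (0.33), *ETV5* (0.48), *FOS* (-1.08), *JUN* (-0.85) and *JUNB* (-0.67). For chemokines and cytokines it was found in *CXCL5* (1.23), *CCL2* (1.03), *CX3CL1* (-0.65), *CXCL2* (0.82) and *IL11* (-1.38). For interferon and MHC class I genes it was found in *GBP1* (-0.67), *GBP2* (-1.33), *IFIT1* (-1.23), *IRF9* (-0.59), *ISG15* (-0.61), *OAS1* (-0.37), *STAT2* (-0.31), *UBE2L6* (-0.38) and *NLRC5* (-0.39). For ATF4 targets and tRNA synthetases it was found in *CHAC1* (-0.85), *DDIT3* (-0.69), *DDIT4* (-1.22), *MTHFD2* (-0.36), *NUPR1* (-0.80), *TRIB3* (-0.69) and *AARS1* (-0.42). For chaperones and ribosome biogenesis it was found in *DNAJB6* (0.50), *FKBP4* (0.46), *HSP90AA1* (0.44), *HSPA9* (0.17), *HSPB1* (-0.47), *HSPD1* (0.32), *NCL* (0.56), *NOP56* (0.29), *NPM1* (0.43) and *WDR43* (0.47). For redox, metal and metabolic genes it was found in *AKR1C3* (-1.02), *ABCC3* (-0.54), *MT2A* (0.38), *HK2* (0.45) and *PFKP* (-0.31). For lysosomal genes it was found in *CTSB* (-0.42), *CTSD* (-0.26), *NAGLU* (-0.42) and *TFEB* (-0.73). For Wnt, Notch and axon guidance genes it was found in *ROR1* (0.92), *WNT2B* (-0.43), *WNT7B* (-0.70), *JAG1* (-0.87) and *SLIT2* (0.61). For clock genes it was found in *CRY1* (0.37), *DBP* (-0.72), *HLF* (-0.94) and *TEF* (-0.38). For genes in none of these lists it was found in *MARCHF4* (0.42), *SFTA1P* (0.72), *UAP1* (0.56), *ATP7B* (0.74), *FXYD6-FXYD2* (-0.64), *GGT1* (-1.03), *MAP2* (-0.77), *CYS1* (-0.59), *GAL3ST1* (-1.06), *KCNJ16* (-0.65), *TMT1A* (-0.60), *OLFML2A* (-1.38), *MAP2K6* (-1.53), *FGB* (1.24) and *SERPINA1* (-0.97).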

How the results depend on the processing

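The number of lowered genes was 488. It rose to 789 with quantile normalization, 739 with edgeR and 771 with DESeq2 on the recovered reads, and it was 110 under a stricter rule that asked for an adjusted P below 0.05 and a log2 change of 1 or more. The raised count of 1485 went to 419 under that rule, and the 917 genes called the same way in DMSO and Sorafenib to 235. The lowered share of calls was 24.7% as deposited, 33.0% with edgeR and 35.8% with DESeq2. Leaving out each of the 4 samples in turn gave 466 to 696 lowered and 1479 to 1560 raised genes, and 888 to 941 called the same way in both treatments. The interaction count of 2978 ranged from 1581 without siCtrl DMSO replicate 2 to 4575 without siY/T DMSO replicate 2, and the cause was not tested. No value changed its direction for a named gene called in DMSO. Of the 202 called genes among the 353 that the naming rule gave, 167 kept their call under every alternative. Of the 43 list medians 8 changed sign under some alternative, the largest of them -0.12 as deposited. With the replicate block 488 genes were lowered, 1485 raised and 2814 differed between treatments, so it changed no other call by over 1.5 times. Samples of the same number correlated at 0.19 in DMSO and 0.10 in Sorafenib in their deviations from the group means. Over all 15 pairs of groups the correlations ran from -0.28 to 0.19, and the DMSO pair was the highest. With 2 samples a group, these values cannot tell whether samples of the same number share more than a number. Values under about 1 CPM rest on few reads and on the pseudocount.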

Other observations

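Measured as a difference in CPM rather than as a fold, abundant genes outside the naming rule stand out, and they were chosen after their values were seen. *ALDH1A1*, the retinaldehyde dehydrogenase used as a marker of stem-like tumour cells, fell from a mean of 2326 CPM in siCtrl to 1072 CPM in siY/T cells, a log2 change of -1.12. The filamin gene *FLNC* fell from 2071 to 1062 CPM (-0.96) and the caveolar *CAVIN1* from 1809 to 885 CPM (-1.03). The constitutive chaperone genes *HSP90AB1* (3922 to 2761 CPM, -0.51) and *HSPA8* (3923 to 2901 CPM, -0.44) were lower as well, inside the threshold on the log2 scale. In the other direction the surface glycoprotein gene *CD24* rose from 374 to 1534 CPM, a log2 change of 2.04, and so lay just under the 15 largest rises. The adhesion gene *CTNNA1*, alpha-catenin, rose from 1180.3 to 1911 CPM (0.69), the protease gene *PRSS23* from 1170.2 to 1827 CPM (0.64) and *PADI2*, which converts arginine to citrulline in proteins, from 786 to 1369.9 CPM (0.80). The filamin paralogs *FLNA* (2449 to 3745 CPM, 0.61) and *FLNC* thus moved apart, although the call of *FLNA* was lost with TMM scaling.

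Of 29 genes of fatty acid synthesis and storage 2 were raised and none lowered (median 0.16).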
